A study of Caenorhabditis elegans with 12 samples.

Results

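The aquaporin genes aqp-1 to aqp-8 of Caenorhabditis elegans were followed across fer-1 mutant and wild type young adults. These 8 genes were taken by their symbols in the platform annotation, out of 17138 genes named by probe sets with a single gene. They are covered by 9 probe sets of 22548. Of the 8 genes, 5 lay above the cutoff used for testing in 12 of 12 arrays (aqp-1, aqp-2, aqp-4, aqp-7 and aqp-8), and 3 lay below it in every array (aqp-3, aqp-5 and aqp-6).

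Aquaporins are membrane channels that let water, and in the aquaglyceroporin branch also glycerol, pass along a concentration gradient. In C. elegans they are known from the intestine, which takes up and passes on water and solutes, and from the excretory cell, the single canal-bearing cell that serves in osmoregulation. aqp-1 encodes a glycerol channel of the intestine that is known to respond to dietary glucose and to the insulin pathway. aqp-4 is an intestinal gene, and aqp-2, aqp-3 and aqp-8 are known from the excretory cell.

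Each of the 12 samples was total RNA of whole worms on an Affymetrix array of its own, with 4 samples in each of 3 groups. The groups were fer-1 (hc1ts) in strain BA1, fer-1 (hc24ts) in strain BA24, and wild type strain N2, called hc1, hc24 and wild type here. Both alleles are temperature-sensitive, each allele is represented by a single strain, and all groups were raised at 25 °C from synchronised L1 larvae. The product of fer-1 is a ferlin, which sperm need for the fusion of their membranous organelles as they mature. Each sample was a pool of 1000 sorted young adults, with a gate set against L4 and younger larvae. The submitters made 6 preparations per genotype and kept the 4 that correlated best, so the arrays vary less among themselves than all preparations would. The values are log2 levels, and a difference of 1 is a doubling.

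The array medians set wild type apart from both mutants, at 4.34 to 4.36 in hc1, 4.33 to 4.37 in hc24 and 4.53 to 4.66 in wild type. The arrays correlated at 0.997 or above across probe sets within a group, and no pair held identical values. fer-1 itself, with 1 probe set, was at background: 1.48 ± 0.01 in hc1, 1.47 ± 0.00 in hc24 and 1.46 ± 0.00 in wild type (SD, n = 4 each). It therefore gives no check of the genotype labels. hc1 replicate 2 stood apart in the major sperm protein genes: the mean log2 level of 23 msp genes was 8.52 in that array, against 4.69 to 5.5 in the other hc1 arrays, 8.72 to 8.99 in hc24 and 5.07 to 6.13 in wild type. The values of that array are therefore given apart for the tested members, and the differences of the aquaporin genes that involve hc1 are given with and without it. For 16 of the genes of other lists named below, leaving it out ended or added 0 calls in the comparisons that involve hc1. hsp-70 was not among these 16.

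Among the 5 tested aquaporin genes the largest difference from wild type was in aqp-2, which was lower in both mutants and lowest in hc24. aqp-2 had log2 levels of 12.57, 12.56 and 12.57 in hc1 replicates 1, 5 and 6 and 12.80 in replicate 2. It had 11.76, 11.86, 11.75 and 12.15 in hc24, and 14.36, 14.17, 14.23 and 14.43 in wild type. No array of any group overlapped another group, so the order was hc24, hc1, wild type from low to high. Against wild type, aqp-2 fell 3.19-fold in hc1 (log2 difference -1.67 ± 0.10 SE, adjusted p = 2.39e-08, limma) and 5.35-fold in hc24 (-2.42 ± 0.10 SE, adjusted p = 6.91e-10). The alleles also differed from each other, with hc1 1.68-fold higher than hc24 (0.75 ± 0.10 SE, adjusted p = 0.000117). Leaving out hc1 replicate 2 gave a fall of 3.32-fold in hc1, and hc1 was then 1.61-fold higher than hc24.

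A second aqp-2 probe set showed the same order of groups with larger differences. It averaged 11.79 ± 0.19 in hc1, 10.74 ± 0.20 in hc24 and 13.93 ± 0.05 in wild type (SD, n = 4 each). The fall there was 4.39-fold in hc1 (adjusted p = 5.68e-09) and 9.08-fold in hc24 (adjusted p = 1.34e-10). Without hc1 replicate 2 the fall of the second aqp-2 set was 4.66-fold in hc1. The name of the brighter set ends in x_at, which marks sets whose probes may also bind other transcripts, and that of the second in s_at, which marks sets that can match several transcripts of a gene or family. The size of the aqp-2 difference thus depended on the probe set, by 1.70 times in hc24, while the direction did not.

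**Figure D1:**
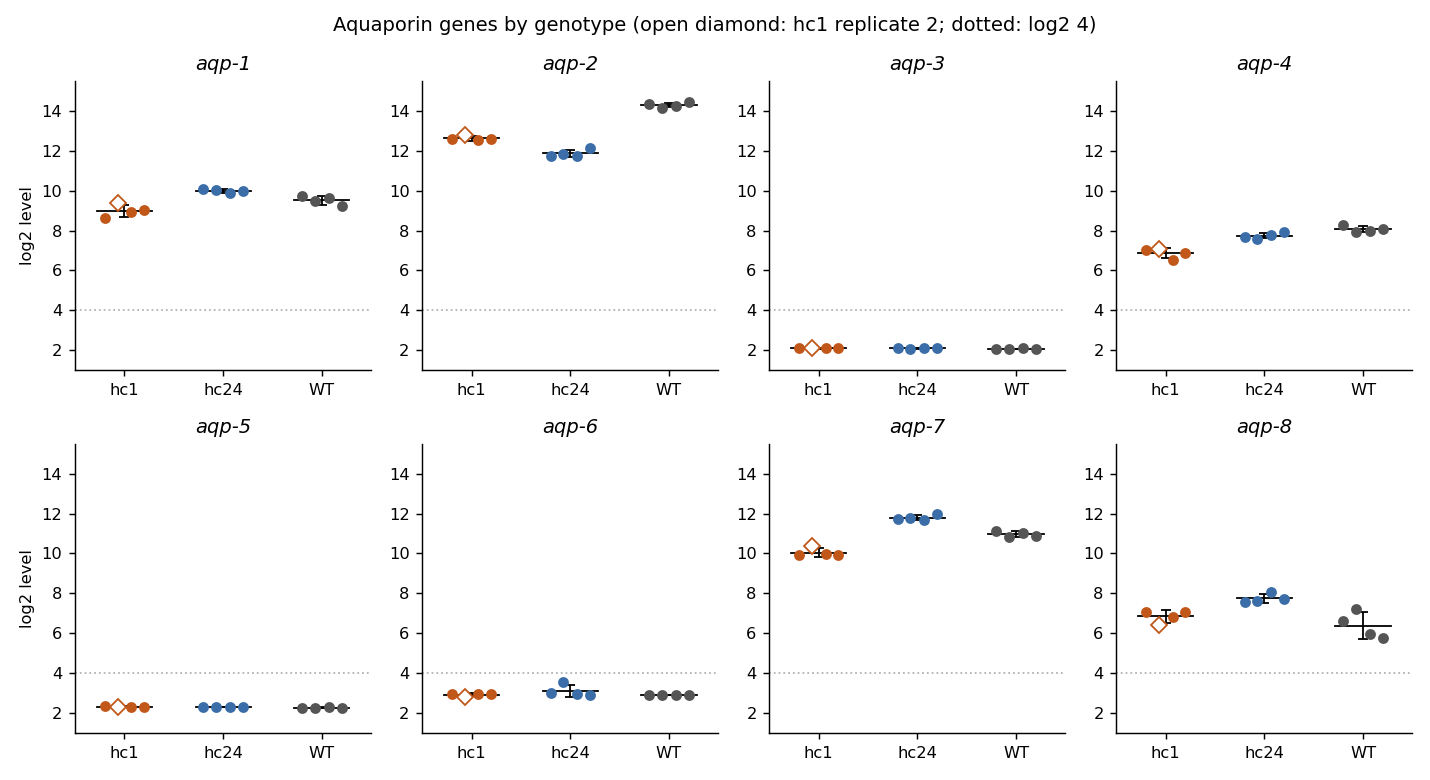
Log2 level (y axis) of each aquaporin gene in every array, by genotype (x axis, 4 arrays each), for the brightest probe set of the gene, with the mean (line) and SD (bar) of each group. hc1 replicate 2 is drawn as an open diamond, and the dotted line marks the log2 level of 4 used as a cutoff. aqp-2 is lower in all mutant arrays than in wild type, while aqp-3, aqp-5 and aqp-6 stay under the cutoff throughout.

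aqp-4, the intestinal water channel gene, was lower in hc1 than in wild type, and lower in hc24 by a smaller amount. aqp-4 had log2 levels of 7.02, 6.55 and 6.88 in hc1 replicates 1, 5 and 6 and 7.06 in replicate 2. It had 7.70, 7.60, 7.77 and 7.92 in hc24 and 8.29, 7.95, 7.97 and 8.10 in wild type. The groups did not overlap, although hc24 and wild type were only 0.03 apart at their nearest arrays. aqp-4 fell 2.29-fold in hc1 (-1.2 ± 0.12 SE on the log2 scale, adjusted p = 2.61e-06) and 1.26-fold in hc24 (-0.33 ± 0.12 SE, adjusted p = 0.0304). The hc24 call is weak: after median centring of the arrays the difference was -0.08 (adjusted p = 0.535), and leaving out wild type replicate 3 (adjusted p = 0.0926) or 6 (adjusted p = 0.0595) ended it too, as did leaving out hc24 replicate 1, 2 or 3 (adjusted p = 0.0668, 0.0851 and 0.0515). Between the alleles, hc1 was 1.82-fold lower than hc24 (-0.87 ± 0.12 SE, adjusted p = 0.00015). Without hc1 replicate 2, aqp-4 was 2.39-fold lower in hc1 than in wild type and 1.90-fold lower than in hc24.

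aqp-1, the intestinal glycerol channel gene, was lower in hc1 and higher in hc24 than in wild type. Its log2 levels were 8.62, 8.91 and 9.02 in hc1 replicates 1, 5 and 6 and 9.36 in replicate 2. They were 10.09, 10.04, 9.87 and 10 in hc24 and 9.75, 9.46, 9.62 and 9.24 in wild type. The hc24 arrays lay above all others, whereas hc1 replicate 2 lay within the wild type range and the 3 other hc1 arrays lay below it. aqp-1 fell 1.45-fold in hc1 (-0.54 ± 0.14 SE, adjusted p = 0.00543), or 1.59-fold without replicate 2 (adjusted p = 0.000755). It rose 1.40-fold in hc24 (0.48 ± 0.14 SE, adjusted p = 0.0122). Both calls depend on the scaling: median centring gave -0.28 in hc1 (adjusted p = 0.0718) and cyclic loess 0.34 in hc24 (adjusted p = 0.0853). The direct difference between the alleles was larger, with hc1 2.03-fold lower than hc24 (-1.02 ± 0.14 SE, adjusted p = 0.0002), or 2.21-fold without hc1 replicate 2.

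aqp-7 showed the same order of groups as aqp-1, with larger differences. It had log2 levels of 9.94, 9.98 and 9.90 in hc1 replicates 1, 5 and 6 and 10.36 in replicate 2. It had 11.74, 11.80, 11.68 and 11.97 in hc24 and 11.14, 10.81, 11.02 and 10.88 in wild type. The 3 groups did not overlap, with hc1 lowest, wild type between and hc24 highest. aqp-7 fell 1.89-fold in hc1 (-0.92 ± 0.11 SE, adjusted p = 1.52e-05), or 2.03-fold without replicate 2, and rose 1.79-fold in hc24 (0.84 ± 0.11 SE, adjusted p = 4.44e-05). hc1 was 3.37-fold lower than hc24 (-1.75 ± 0.11 SE, adjusted p = 3.47e-07), or 3.63-fold without hc1 replicate 2. Of all tested probe sets, 1.57% differed more between the alleles than aqp-7.

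aqp-8, an excretory cell gene, was highest in hc24, and its level in wild type varied widely. It had log2 levels of 7.06, 6.83 and 7.05 in hc1 replicates 1, 5 and 6 and 6.41 in replicate 2. It had 7.57, 7.63, 8.09 and 7.70 in hc24 and 6.61, 7.22, 5.96 and 5.74 in wild type. Every hc24 array lay above every array of the other groups, while the hc1 arrays fell within the wild type range. aqp-8 rose 2.58-fold in hc24 (1.36 ± 0.28 SE, adjusted p = 0.00111). In hc1 the difference of 0.46 from wild type had a 95% interval of -0.15 to 1.06 and did not pass (adjusted p = 0.16). It was 0.60 without hc1 replicate 2 (adjusted p = 0.0866) and 0.74 without wild type replicate 4 (adjusted p = 0.0105), the highest wild type array. hc1 was 1.88-fold lower than hc24 (-0.91 ± 0.28 SE, adjusted p = 0.0253). That call was lost without hc1 replicate 2 (-0.77, adjusted p = 0.0692), without hc1 replicate 5 (adjusted p = 0.0539) or without hc24 replicate 3 (adjusted p = 0.0734).

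**Figure D2:**
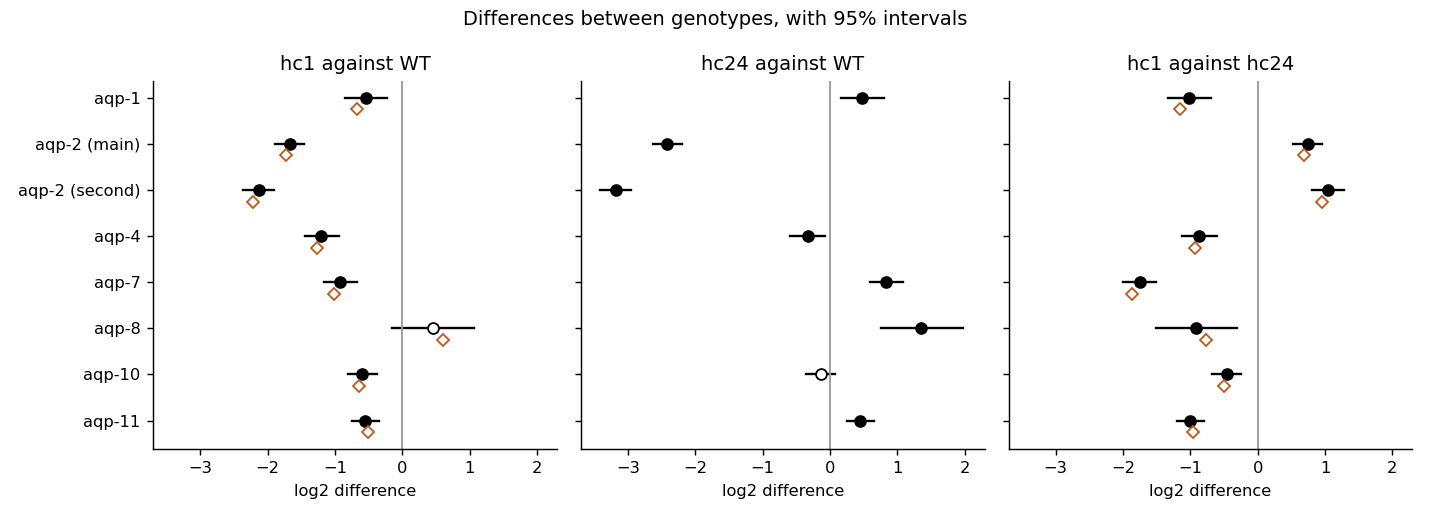
Log2 difference (x axis) with its 95% interval (line) for each tested aquaporin gene, in hc1 against wild type, hc24 against wild type and hc1 against hc24. Filled circles have an adjusted p under 0.05, and open diamonds give the difference without hc1 replicate 2. Both aqp-2 probe sets lie left of 0 against wild type in both mutants, and aqp-7 lies at -0.92 in hc1 and at 0.84 in hc24.

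aqp-3, aqp-5 and aqp-6 were at background in every genotype and were not tested. aqp-3, an excretory cell gene, lay between 2.07 and 2.13 over the 12 arrays, at the 14.4 to 15.4 percentile of the probe sets of an array. aqp-5 lay between 2.24 and 2.34, at the 21.7 to 24.3 percentile. aqp-6 lay between 2.80 and 3.55, and its highest value, in hc24 replicate 2, was set apart from 2.92 to 3.02 in the other hc24 arrays but still under the cutoff of 4. No level or direction is drawn for these 3 genes.

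Of the 5 tested aquaporin genes, 4 passed as lower and 0 as higher in hc1 against wild type, where 69.2% of all 11833 tested probe sets passed, 25.9% as lower and 43.3% as higher. In hc24 against wild type 3 passed as higher and 2 as lower, where 59.4% of all tested probe sets passed, 37.7% as higher and 21.7% as lower. Between the alleles 5 of 5 passed, 1 higher and 4 lower in hc1, where 30.7% of all tested probe sets passed with 18.6% higher and 12.2% lower in hc1. Without hc1 replicate 2 the number that passed was 4 in hc1 against wild type, 5 in hc24 against wild type and 4 in hc1 against hc24. The count in either direction in hc1 against wild type, 4 of 5, is near the background there.

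The members were further from 0 than most probe sets were. The median absolute log2 difference of the 5 genes was 0.92 in hc1 against wild type, 0.84 in hc24 against wild type and 0.91 between the alleles, beside 0.41, 0.31 and 0.18 over all tested probe sets. The members reached the cutoff in 12 arrays, whereas a probe set needed only 4 arrays to be tested, so the background includes dimmer sets. The arrays did not overlap for 3 of 5 genes in hc1 against wild type, 5 of 5 in hc24 against wild type and 5 of 5 between the alleles, beside 64.9%, 55.2% and 34.6% of all tested probe sets. The count in hc1 against wild type is thus not above the background. hc1 had the lowest mean for 3 of the 5 genes and the highest for 0, whereas hc24 had the highest mean for 3 and the lowest for 1. These orders use group means whether or not a difference passed. They were not counted over all tested probe sets, so they are not read as particular to the family.

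The direction of small differences from wild type rests on how the arrays are scaled. The median log2 difference from wild type over all tested probe sets was 0.14 in hc1 and 0.12 in hc24. Median centring raised these medians to 0.40 and 0.38, and cyclic loess brought them to -0.03 and -0.00. Relative to the median of all tested probe sets as deposited, aqp-1 stood at -0.68 in hc1 and 0.36 in hc24, aqp-2 at -1.82 and -2.54, aqp-4 at -1.34 and -0.45, aqp-7 at -1.06 and 0.71, and aqp-8 at 0.31 and 1.24. None of the 5 genes changed direction in any comparison under median centring, cyclic loess or quantile normalization.

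hc1 replicate 2 was the hc1 array closest to the wild type mean for 5 of the 5 tested aquaporin genes, and for 32.5% of all tested probe sets. It was 0.51 above the mean of the other hc1 arrays for aqp-1, 0.42 above for aqp-7, 0.24 above for aqp-4 and 0.23 above for aqp-2. For aqp-8 it was 0.57 below (log2 difference -0.57). In the msp genes that array lay near hc24. It was also the hc1 array closest to the hc24 mean for aqp-1, aqp-4 and aqp-7. For aqp-2 and aqp-8 it lay further from hc24 than another hc1 array did.

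The other members of the family on the array, aqp-10 and aqp-11, are given beside these. aqp-11 had log2 levels of 7.84, 7.71 and 7.97 in hc1 replicates 1, 5 and 6 and 7.70 in replicate 2, with 8.67, 8.79, 8.85 and 8.89 in hc24 and 8.53, 8.43, 8.26 and 8.19 in wild type. As with aqp-7, the hc1 arrays lay lowest and the hc24 arrays highest, without overlap. It fell 1.46-fold in hc1 (adjusted p = 0.000191), rose 1.37-fold in hc24 (adjusted p = 0.00114) and was 2.00-fold lower in hc1 than in hc24 (adjusted p = 6.55e-06). Without hc1 replicate 2, aqp-11 was 1.43-fold lower in hc1 than in wild type and 1.95-fold lower than in hc24. aqp-10 fell 1.51-fold in hc1, to 10.61 ± 0.13 against 11.21 ± 0.18 in wild type (SD, n = 4 each, adjusted p = 0.000183), and at 11.07 ± 0.11 in hc24 its difference of -0.14 from wild type did not pass (adjusted p = 0.249, 95% interval -0.35 to 0.08). Without hc1 replicate 2 the fall of aqp-10 in hc1 was 1.56-fold. aqp-10 was 1.38-fold lower in hc1 than in hc24 (adjusted p = 0.00386), or 1.42-fold without that array. With these included, hc1 had the lowest mean for 5 of 7 aquaporin genes and the highest for 0, again with no count over all tested probe sets beside it. aqp-9 and aqp-12 had no probe set of their own in the annotation used.

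**Figure D3:**
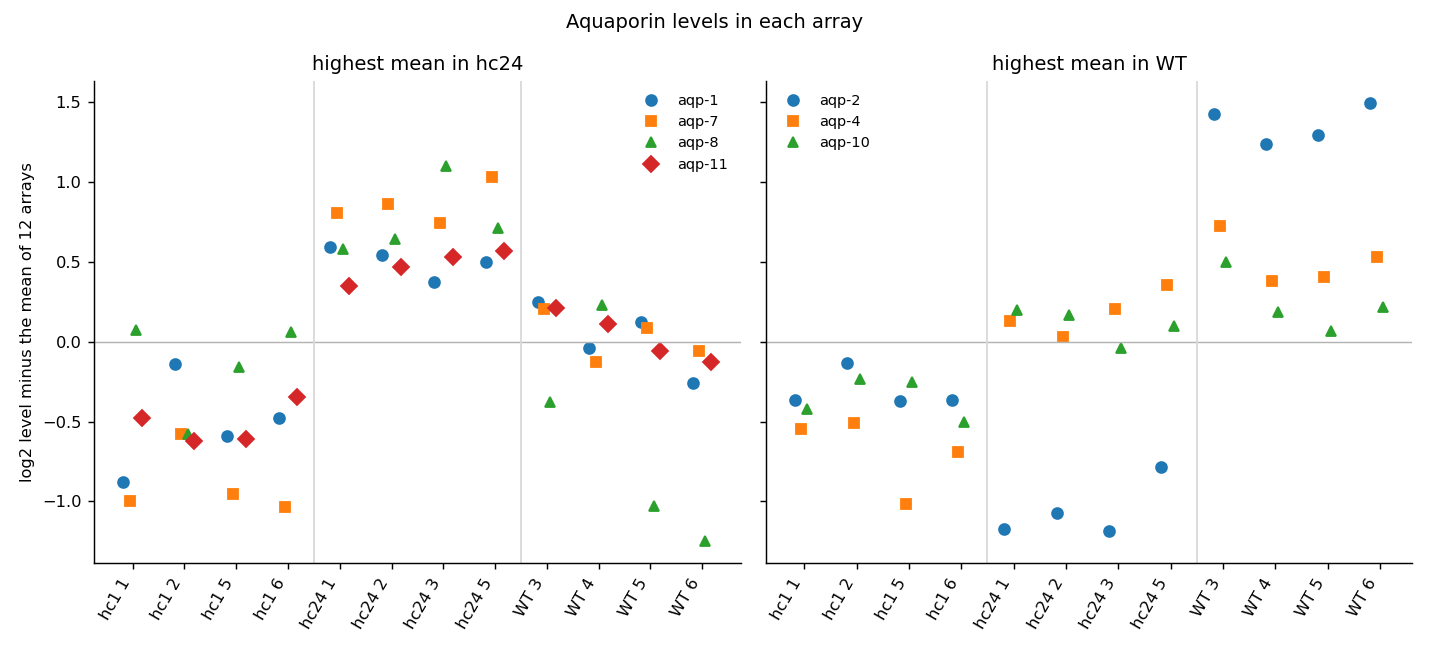
Log2 level minus the mean over 12 arrays (y axis) in every array (x axis, genotype and replicate number) for the aquaporin genes with their highest mean in hc24 (left) and in wild type (right). In the left panel aqp-1, aqp-7 and aqp-11 have their lowest mean in hc1 and their highest in hc24, and in the right panel aqp-2 alone is lower in hc24 than in hc1.

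Excretory cell genes were mostly lower in both mutants. aqp-2 was lower too, whereas aqp-8 rose in hc24. Of 10 tested genes of this list 9 fell and 1 rose in hc1 (median log2 difference -1.14), and the same numbers held in hc24 (median -0.85), with 8 falls in hc1 without hc1 replicate 2. Over all tested probe sets 25.9% passed as lower and 43.3% as higher in hc1, and 21.7% and 37.7% in hc24. Such falls were not particular to this list, since epidermis markers had medians of -1.31 in hc1 and -0.98 in hc24. ifa-4, an intermediate filament gene, fell 3.66-fold in hc1 and 3.53-fold in hc24 (adjusted p = 1.43e-10 and 1.68e-10). sma-1, a spectrin gene that shapes the canal, fell 2.32-fold in hc1 and 3.61-fold in hc24. clh-3, a chloride channel gene, rose 2.45-fold in hc1 and 2.33-fold in hc24. Over 14 genes on the array the mean log2 level was 6.16 to 6.24 in hc1, 6.16 to 6.17 in hc24 and 6.87 to 6.91 in wild type. Several of the most specific members (ceh-6, pgp-12, glt-3 and sulp-4) did not reach the cutoff, and their part in the aquaporin differences was not tested. In whole-worm RNA fewer cells of a type and less RNA per cell cannot be told apart.

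The intestine, where aqp-1 and aqp-4 are known to be expressed, showed smaller median differences. As deposited, the markers that passed mostly fell. Of 14 intestine markers 6 fell and 1 rose in hc1 (median -0.25) and 7 fell and 0 rose in hc24 (median -0.29), and cyclic loess gave 13 falls in hc1. As deposited, 25.9% of all tested probe sets passed as lower and 43.3% as higher in hc1, and 21.7% and 37.7% in hc24. Median centring gave 4 rises and 6 falls in hc1, and 3 rises and 3 falls in hc24. act-5, the actin of intestinal microvilli, fell 1.81-fold in hc1 and 1.33-fold in hc24. In hc24 elt-7 and cpr-1 had the smallest adjusted p of the list, falling 2.54-fold and 1.56-fold (adjusted p = 6.2e-06 and 4.56e-05). ftn-1, a ferritin gene, rose 4.18-fold in hc1 (adjusted p = 0.0003) and had a log2 difference of -0.48 in hc24 (adjusted p = 0.27). ifb-2, an intestinal intermediate filament gene, fell 2.23-fold in hc1 (adjusted p = 1.26e-06) but had a log2 difference of -0.15 in hc24 (adjusted p = 0.234), and hc1 was 2.01-fold lower than hc24 (adjusted p = 1.86e-05). The mean over the list was 11.12 to 11.21 in hc1, 11.11 to 11.17 in hc24 and 11.36 to 11.61 in wild type, and 0 of the 14 markers lay below the cutoff. The part of these markers in the aquaporin differences was not tested.

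V-ATPase subunit genes, whose proton pump acts in the intestine and the excretory canal, were lower in hc1 than in hc24 for 10 of 19 tested members and higher for 0 (median -0.26). The number lower was 9 without hc1 replicate 2, and 10 to 12 under median centring, cyclic loess and quantile normalization. Over all tested probe sets 12.2% passed as lower and 18.6% as higher in hc1 than in hc24. vha-6, which encodes an intestinal subunit, averaged 10.69 ± 0.09 in hc1, 11.37 ± 0.09 in hc24 and 11.30 ± 0.26 in wild type (SD, n = 4 each), and was 1.61-fold lower in hc1 than in hc24 (adjusted p = 0.000545). Against wild type 14 fell and 2 rose in hc1 and 1 fell and 3 rose in hc24, but with median centring 3 fell and 5 rose in hc1 and 12 rose in hc24, so no direction against wild type is drawn for this list.

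Genes on a list of osmotic stress and glycerol handling, which also holds furrow collagen genes, were lower or did not pass. dpy-7 is on the list of epidermis markers as well. Of 12 tested genes 8 fell and 0 rose in hc1 (median -0.65) and 8 fell and 0 rose in hc24 (median -0.54), whereas median centring gave 2 rises in each mutant. Over all tested probe sets as deposited 25.9% passed as lower in hc1 and 21.7% in hc24. The largest falls were in furrow collagen genes: dpy-2 fell 17.7-fold in hc1 and 18.4-fold in hc24, and dpy-7 fell 16.4-fold and 20.6-fold. Mutation of furrow collagen genes is known to switch on the osmotic response. Whether lower transcript levels of these genes do so was not tested. The glycerol-3-phosphate dehydrogenase gene gpdh-1, the osmotically induced enzyme of glycerol synthesis, was chosen after its values were seen. It had log2 differences of -0.24 in hc1 (adjusted p = 0.159) and -0.19 in hc24 (adjusted p = 0.286). hmit-1.1, hmit-1.2, osm-7, osr-1 and dpy-8 did not reach the cutoff.

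Insulin signalling genes and targets of DAF-16 and HSF-1, the transcription factors through which glucose is known to act on aqp-1, went both ways. Of 14 tested genes 8 rose and 4 fell in hc1 (median 0.47) and 6 rose and 5 fell in hc24 (median 0.04). Over all tested probe sets 43.3% passed as higher and 25.9% as lower in hc1, and 37.7% and 21.7% in hc24. The counts are therefore not read as particular to this list. pdk-1, a kinase gene of the pathway, rose 3.09-fold in hc1 and 1.92-fold in hc24, and sgk-1 fell 2.36-fold and 2.28-fold. sod-3, a DAF-16 target, was 2.27-fold lower in hc1 than in hc24 (adjusted p = 0.000215), rising 2.66-fold in hc24 against wild type. dod-3, named for its response to DAF-16, went the other way and was 4.44-fold higher in hc1 than in hc24 (adjusted p = 2.56e-08). daf-16 itself and hsf-1 were chosen after their values were seen. daf-16 had log2 differences of -0.16 in hc1 (adjusted p = 0.0789) and -0.18 in hc24 (adjusted p = 0.0589). hsf-1 rose 1.60-fold in hc1 and 1.32-fold in hc24. hsp-70, among the 4 genes of the list that fell in hc1, fell 7.49-fold there (adjusted p = 5.78e-06). Its difference in hc24 is not given here, so the fall is not read as particular to hc1.

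Epidermal, embryonic and sperm markers moved as well. Over all tested probe sets 25.9% passed as lower and 43.3% as higher in hc1, and 21.7% and 37.7% in hc24. Between the alleles 12.2% passed as lower in hc1. Of 10 tested epidermis markers 7 fell and 1 rose in each mutant, with a mean over 11 genes of 8.0 to 8.13 in hc1, 7.88 to 8.09 in hc24 and 9.19 to 9.45 in wild type. Of 7 tested early embryo markers 6 rose and 1 fell in each mutant, and the mean over 9 genes was 7.11 to 7.30 in hc1, 6.74 to 6.88 in hc24 and 3.12 to 3.32 in wild type. All 22 tested msp genes rose in hc24 and were lower in hc1 than in hc24. Against wild type 0 msp genes passed in hc1, but 13 fell without hc1 replicate 2. The part of these cell types, or of a difference in stage between the pools, in the aquaporin differences was not tested. Allele and strain cannot be told apart here, since each allele is represented by a single strain.

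For each member, the genes most like it were those with the smallest root-mean-square difference over the 12 arrays, after each probe set was centred on its own mean, among 8755 other tested genes. For aqp-2 these were lect-2, F46E10.2 and F53B3.5, at 0.114 to 0.155 log2 units, where the median gene was at 1.09. lect-2, related to a vertebrate chemotaxin gene, differed from wild type by -1.60 in hc1 and -2.25 in hc24. For aqp-4 they were R07E3.4, mlc-3 and acs-5, at 0.116 to 0.144. mlc-3, a myosin light chain gene, differed from wild type by -1.11 in hc1 and -0.33 in hc24.

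For aqp-7 the most alike genes were col-19, acdh-9 and F42G10.1, at 0.163 to 0.173. col-19, a collagen gene of the adult cuticle, averaged 12.46 in hc1, 14.12 in hc24 and 13.14 in wild type. For aqp-1 they were Y51H7C.1, got-1.2 and paic-1, at 0.154 to 0.166, all lower in hc1 and higher in hc24 than in wild type by their means. got-1.2, an aspartate aminotransferase gene, differed from wild type by -0.41 in hc1 and 0.31 in hc24. aqp-8 had no close match, its nearest genes being K07A1.13, F40H3.1 and E01G4.5 at 0.374 to 0.381, where the median gene was at 0.698.

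**Figure D4:**
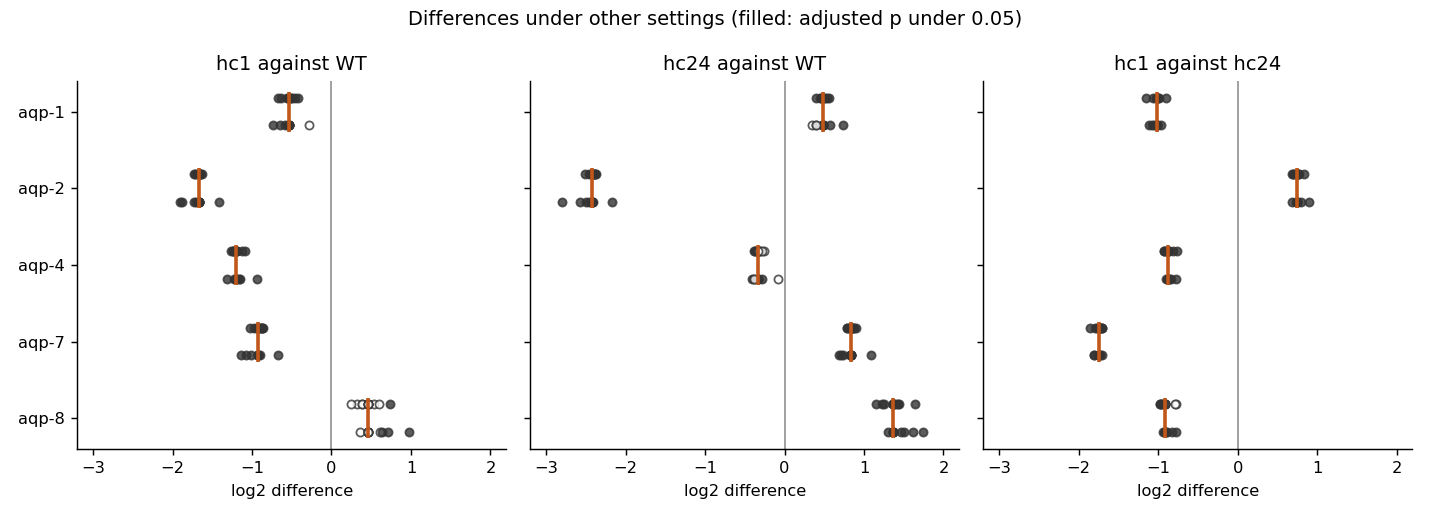
Log2 difference (x axis) of each tested aquaporin gene in the 3 comparisons under other settings, with runs that leave out 1 array drawn above and all other settings below the vertical bar that marks the reported value. Filled points have an adjusted p under 0.05. Points of aqp-2, aqp-4 and aqp-7 in hc1 against wild type are all filled, while those of aqp-4 in hc24 and of aqp-8 in hc1 fall on both sides of the threshold.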

How the data were processed

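The authors deposited 1 log2 value per probe set and array for 12 arrays, made with Affymetrix Expression Console and GCRMA per the submitters' processing notes (no version is given in those notes). GCRMA corrects background by probe sequence and normalizes across arrays. Levels of different probe sets were set side by side only for the cutoff, the percentiles of sets at background and the choice of the brightest set. Of 22625 probe sets 77 were controls and 22548 were kept. Groups come from the sample titles, which call the samples biological replicates.

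Testing was limited to the 11833 probe sets that reached a log2 value of 4 in 4 or more arrays. limma 3.58.1 in R 4.3.3 was fitted to all 12 arrays with a mean per group and no covariate (9 residual degrees of freedom), and was tested on simulated data. P-values are two-sided, with Benjamini-Hochberg adjustment over all tested probe sets of a comparison, called at 0.05, and 95% intervals are unadjusted. A gene is represented by its brightest probe set that names a single gene. Named genes were all members, the 3 most alike genes of each called member and up to 2 rising and 2 falling genes per list and mutant with the smallest adjusted p. Members, lists and rules were chosen with earlier results of these data known. Symbols were matched by Entrez ID to RefSeq (WBcel235), used for gene order only. Array number limits the precision.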

Additional observations from a re-analysis of the deposited data

Results flagged for a closer look

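In 4 arrays per group, hc1 replicate 2 was marked as apart from the 3 other hc1 arrays for aqp-2 (12.80, against 12.56 to 12.57) and for aqp-7 (10.36, against 9.90 to 9.98). These were 2 of 24 groups of arrays looked at in this way, and chance alone marks about 1 group in 20. The aqp-2 mark rests on how close the 3 other arrays lay to each other. The array was 0.23 above their mean there, a smaller gap than the unmarked 0.51 for aqp-1 and -0.57 for aqp-8.

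The change from wild type differed between the alleles for 7 of 7 tested aquaporin genes, by the limma test of hc1 against hc24, in which 30.7% of all tested probe sets passed. The log2 difference, hc1 minus hc24, was -1.02 for aqp-1 (adjusted p = 0.0002), 0.75 for aqp-2 (adjusted p = 0.000117), -0.87 for aqp-4 (adjusted p = 0.00015), -1.75 for aqp-7 (adjusted p = 3.47e-07), -0.91 for aqp-8 (adjusted p = 0.0253), -0.46 for aqp-10 (adjusted p = 0.00386) and -1.0 for aqp-11 (adjusted p = 6.55e-06). The aqp-8 call was lost without hc1 replicate 2 (adjusted p = 0.0692), hc1 replicate 5 (adjusted p = 0.0539) or hc24 replicate 3 (adjusted p = 0.0734). hc1 was lower than hc24 in 4 of 4 arrays of each gene other than aqp-2, and higher in 4 of 4 for aqp-2.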

How the results depend on the processing

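Over the 5 tested aquaporin genes, 3 comparisons and all alternatives, 314 of 333 values kept their direction and side of the threshold, 15 lost their call, 4 gained it and 0 changed direction. Of those lost, 8 were aqp-4 in hc24 against wild type, where the difference ranged from -0.41 to -0.08. Without the filter on low values 12514 of 22548 probe sets passed in hc1 against wild type, beside 8194 of 11833, since probe sets at background then enter. aqp-5, at a difference of 0.05, was called there (adjusted p = 0.0247), and aqp-4 in hc24 (adjusted p = 0.0556) and aqp-8 between the alleles (adjusted p = 0.0774) were not. Same-numbered arrays of different groups did not deviate together (correlations of -0.07 to 0.08), so the numbers are not taken as pairs. With the replicate number as a block, 3 of 5 aquaporin genes passed in hc24 against wild type, without aqp-1 (adjusted p = 0.114) and aqp-4 (adjusted p = 0.0807), and aqp-8 passed in hc1 (0.98, adjusted p = 0.00236). Array weights also gave a call for aqp-8 in hc1 (0.64, adjusted p = 0.0433), as did median centring (0.71, adjusted p = 0.0323). Of the probe sets called in hc1 against wild type 62.5% were higher as deposited, 76.5% with median centring and 44.0% with cyclic loess, and in hc24 63.5%, 80.4% and 45.5%. Between the alleles 60.4% were higher in hc1 as deposited and 50.8% with cyclic loess. Leaving out each array in turn gave 4 to 5 aquaporin genes called in each comparison.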

Other observations

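The protein-coding genes next to the 5 tested aquaporin genes in the RefSeq gene order gave 10 neighbours, of which 5 were tested. Against wild type 2 of these fell and 1 rose in hc1, and 1 fell and 1 rose in hc24. Over all tested probe sets 69.2% passed in hc1 and 59.4% in hc24, so the counts of neighbours are not above the background. skpo-3, a peroxidase gene next to aqp-1 on chromosome II, had a log2 difference of -0.48 from wild type in hc1 (adjusted p = 0.0483) and 1.01 in hc24 (adjusted p = 0.000972). ctsa-3.1, on the other side of aqp-1, fell in both mutants, with log2 differences of -1.48 in hc1 (adjusted p = 5.41e-08) and -0.49 in hc24 (adjusted p = 0.000904). hyl-2 and dhhc-10, on either side of aqp-8 on chromosome X, had differences of 0.18 (adjusted p = 0.403) and 0.10 (adjusted p = 0.293) in hc24, where aqp-8 rose.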
